A study of Mus musculus with 24 samples.

Results

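The 10 genes described here are endothelial genes of the muscle capillary bed with *Rbp7* and *Klf2* among them: *Rbp7*, *Klf2*, *Klf4*, *Pecam1*, *Cdh5*, *Kdr*, *Flt1*, *Tek*, *Tie1* and *Nos3*. They were taken as the non-control probes that carry one of these gene names, which gave 14 of 55681 probes. The list was selected on measured values of these arrays, in which *Rbp7*, *Cdh5* and *Klf2* were known to be higher in Hypox, so the difference between the groups is given for them as a description and without a test. Of the 10 genes, 8 had a probe that exceeded 2 times its local background in mean Cy5 signal and so entered the comparison of 9139 genes. The probes of *Pecam1* and *Tek* lay under that limit and were read separately.

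The animals were male mice of the C57BL/6JOlaHsd strain, 10 weeks old on arrival. They ate a low-fat diet with 10% of its energy from fat for 3 weeks and then a high-fat diet with 40% for 6 weeks. In the fasted state, 12 mice breathed 20.9% oxygen (Norm) and 12 breathed 12% oxygen (Hypox) for 6 h, after which RNA was taken from *M. gastrocnemius*, a calf muscle. Each mouse was labelled with Cy5 on an array of its own, against a Cy3-labelled reference pool of all samples. Values are log2 ratios of the mouse over that pool after background correction and normalization within the array. A value of 0 is thus the trend of that array at the brightness of the spot, and differences are between mice, never between genes. The offset of 50 in the background correction pulls the ratios of dim spots toward 0. The 24 arrays lay on 6 slides with 2 Norm and 2 Hypox arrays each, and the mean Cy5 signal of an array was 58.3 to 102 on the dimmest slide, slide 1, and 645 to 1010 on slide 6, the brightest, with 0 saturated spots. The muscle is a bulk tissue, in which fewer endothelial cells and less RNA per endothelial cell cannot be told apart.

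Endothelial cells line the capillaries that run between the muscle fibers, and they pass oxygen, glucose and fatty acids from blood to muscle. Their identity is held by junction proteins such as VE-cadherin, by receptors for vascular endothelial growth factor (VEGF) and the angiopoietins, and by transcription factors of the KLF family that respond to blood flow. The KLF factors are known to raise the endothelial nitric oxide synthase gene *Nos3*, whose product relaxes vessels, and *Rbp7* encodes a retinol-binding protein found in the capillary endothelium of fat, heart and muscle.

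The stretch before the transcription start is shown for *Rbp7* and *Klf2*, which give the list its name, and for *Klf4*, the relative of *Klf2* whose group means were nearly equal. RefSeq sequence (GRCm38.p6) was at hand for 7 of the 10 genes, with no entry used for *Pecam1*, *Cdh5* and *Nos3*. Each run holds the 250 bases before the annotated start, 5′ to 3′ on the strand of the gene. Capitals mark matches, on either strand, to the hypoxia response core ACGTG, the FOXO core GTAAACA, the ETS core CCGGAA or the MEF2 consensus.
Rbp7 (chr4:149454969-149455218, minus strand): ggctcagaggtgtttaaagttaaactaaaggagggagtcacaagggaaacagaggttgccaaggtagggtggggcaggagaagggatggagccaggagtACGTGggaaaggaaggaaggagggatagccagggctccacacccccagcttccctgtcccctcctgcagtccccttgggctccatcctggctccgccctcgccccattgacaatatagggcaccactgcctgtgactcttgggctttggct
Klf2 (chr8:72318812-72319061, plus strand): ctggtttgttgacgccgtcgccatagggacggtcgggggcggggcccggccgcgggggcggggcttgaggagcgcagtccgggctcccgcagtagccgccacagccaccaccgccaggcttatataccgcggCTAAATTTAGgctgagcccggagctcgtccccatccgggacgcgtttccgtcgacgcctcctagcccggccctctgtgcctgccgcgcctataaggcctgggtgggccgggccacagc
Klf4 (chr4:55532476-55532725, minus strand): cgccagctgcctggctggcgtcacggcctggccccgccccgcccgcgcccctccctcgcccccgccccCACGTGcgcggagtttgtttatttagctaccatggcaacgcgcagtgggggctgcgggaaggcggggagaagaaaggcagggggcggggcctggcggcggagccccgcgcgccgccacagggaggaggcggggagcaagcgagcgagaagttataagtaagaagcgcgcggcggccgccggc
The window of *Rbp7* held 1 match to ACGTG, which starts 151 bases before the transcription start. *Klf4* held the same letters at 182 and 181 bases, which is 1 palindrome read on both strands, and 16.6% of the 32851 promoters in the table held a match. The window of *Klf2* held the MEF2 consensus 118 bases before the start, as did 2.92% of all promoters. *Kdr* held CCGGAA 153 bases before its start, as did 12% of promoters, and the windows of *Flt1*, *Tek* and *Tie1* held none of the motifs. GTAAACA, found in 3.17% of all promoters, was in none of the 7 windows. A match is a stretch of letters and was not tested as a binding site.

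*Rbp7*, *Cdh5* and *Klf2* were higher in Hypox, by 0.58, 0.38 and 0.32 on the log2 scale, while the other 5 genes past the filter differed by at most 0.15 in either direction. Of the 8, 4 had a log2 fold change above 0. The genes were chosen on this contrast, so their order and direction are a description. Their median log2 fold change was 0.0073, beside 0.029 over all genes tested.

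**Figure D1:**
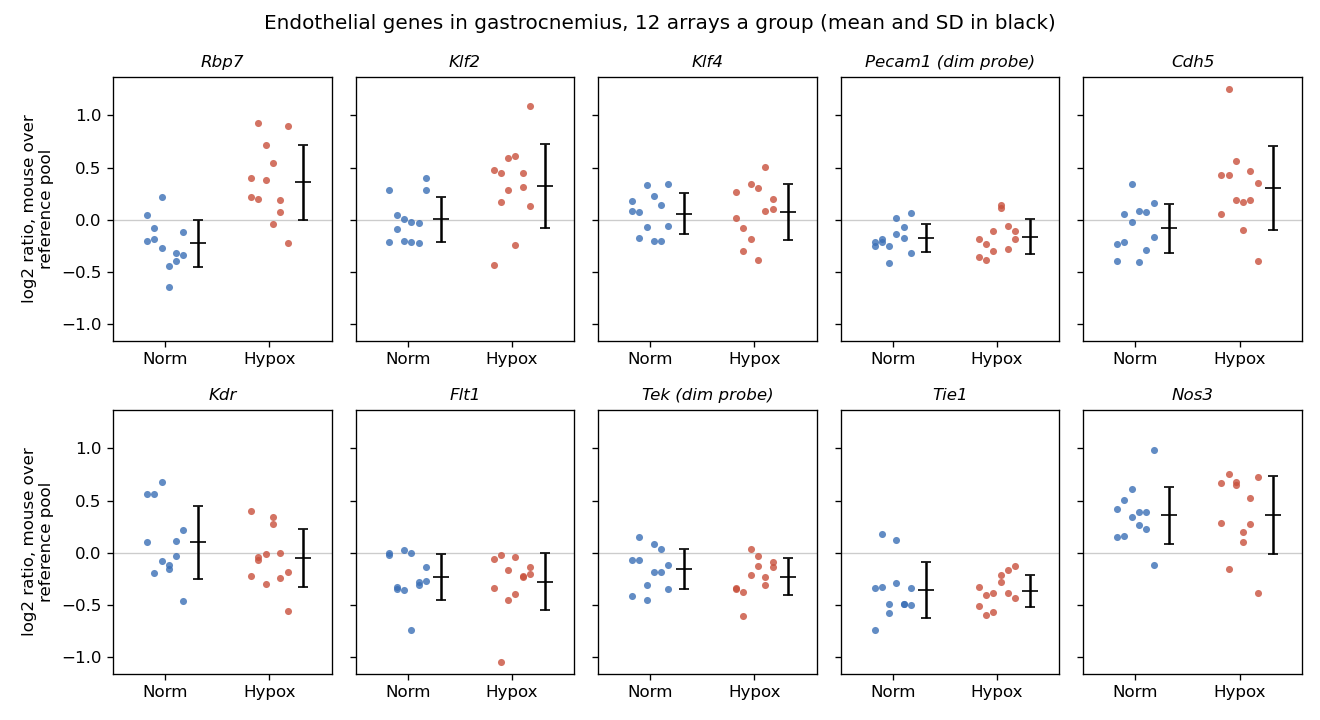
Log2 ratio of each mouse over the reference pool (vertical axis) for the 10 genes in the 12 Norm and 12 Hypox arrays; each point is 1 array, and the black bar gives the mean and SD. For *Rbp7*, 6 Hypox arrays lie above every Norm array and 6 Norm arrays below every Hypox array, while the means of *Klf4*, *Flt1*, *Tie1* and *Nos3* are nearly level.

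*Rbp7*, the capillary retinol-binding protein, had the largest difference of the 10 genes. Its probe lies at chr4:148823823-148823882 (mm9, the build of the array design) and was 7.19 times as bright as its background. Its log2 ratio in Norm ranged from -0.64 (Norm 10) over a median of -0.23 to 0.22 (Norm 3), and in Hypox from -0.22 (Hypox 12) over a median of 0.30 to 0.93 (Hypox 8). Every Hypox array lay above the Norm median, 6 Hypox arrays lay above all Norm arrays, and 6 Norm arrays lay below all Hypox arrays. The mean went from -0.23 ± 0.23 to 0.36 ± 0.36 (Norm to Hypox, SD, n = 12 each). This is a log2 fold change of 0.58 (SE 0.118), or 1.5-fold. Ranked by fold change, *Rbp7* was number 9 of the 9139 genes. As it was chosen for being higher in Hypox, this rank is a description and not a test. Hypox was above Norm on all 6 slides, by 0.25 on the dimmest slide and by up to 0.85 on slide 2.

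The 2 highest *Rbp7* values were those of Hypox 8 with 0.93 and Hypox 6 with 0.90, followed by Hypox 9 with 0.72 and Hypox 10 with 0.54. While the listed lung gene *Lamp3* was highest in Hypox 6, *Sftpc* and *Hopx* were highest in Hypox 8. *Sftpc*, which encodes a surfactant protein of lung epithelium, reached 2.57 there, while it ranged from -2.04 to -0.16 in Norm, and its group difference was 0.81 (SE 0.314, limma P-value 0.0153, adjusted 0.271). Of 13 lung genes listed, 3 were past the filter, and their mean log2 ratio spanned -0.60 to -0.008 in Norm and -0.45 to 1.09 in Hypox. *Sftpa1*, *Sftpb*, *Sftpd*, *Scgb1a1* and *Ager* lay under the filter. Without Hypox 8, the log2 fold change of *Rbp7* was 0.53. Within groups, the r of *Rbp7* with the log2 Cy5 brightness of the array was 0.24 in Norm and 0.50 in Hypox. Within Hypox, *Rbp7* and *Sftpc* had a Pearson r of 0.49 over 12 arrays and of 0.15 without Hypox 8, and *Rbp7* and the lung mean 0.59 and 0.37. Within Norm, these were -0.16 for *Sftpc* and -0.084 for the lung mean.

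*Rbp7* is also known from adipose tissue, of which 2 markers were lower in Hypox without adjustment and none after it. *Cfd*, the adipocyte protease adipsin, differed by -0.56 (SE 0.222, limma P-value 0.0177, adjusted 0.279), and *Adipoq*, the hormone adiponectin, by -0.33 (SE 0.146, P-value 0.0309, adjusted 0.348). At an unadjusted limma P-value of 0.05, 5.07% of all genes were lower. Of 9 adipose genes, 6 were tested and the other 4 passed no threshold, with *Retn* at -0.24 and *Thrsp* at 0.10. The mean of the 6 log2 ratio spanned -0.63 to 1.03 in Norm, where Norm 12 was highest, and -0.56 to -0.13 in Hypox. *Rbp7* was -0.12 in Norm 12. Within Norm, *Rbp7* and the adipose mean had r = 0.49 over 12 arrays and 0.70 without Norm 12, and within Hypox -0.079. Its log2 fold change was 0.59 without Norm 12 and 0.54 without both Hypox 8 and Norm 12.

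*Cdh5* encodes VE-cadherin, the adhesion protein of endothelial junctions, and was read at chr8:106668159-106668218 (mm9). It ranged in Norm from -0.40 (Norm 4) over a median of -0.088 to 0.34 (Norm 9), and in Hypox from -0.39 (Hypox 12) over a median of 0.27 to 1.25 (Hypox 2). The groups overlapped, with 6 Hypox arrays above every Norm array and 10 above the Norm median. The log2 fold change was 0.38 (SE 0.127), from -0.081 ± 0.23 to 0.30 ± 0.40 (SD, n = 12 each). Slide 5 held the widest difference, 1.05, and slide 1 the narrowest, 0.055, with Hypox above Norm on all 6. Without Hypox 2, the log2 fold change was 0.30.

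*Pecam1*, the adhesion protein CD31 and the usual marker of endothelium, was read by a dim probe of 2 spots. Its signal was 1.79 times the local background, and it was well above background on 4 Norm and 4 Hypox arrays. The log2 ratio spanned -0.41 to 0.062 in Norm (median -0.19) and -0.38 to 0.14 in Hypox (median -0.18), and the groups overlapped. The log2 fold change was 0.017, with a 95% interval from -0.11 to 0.14. The endothelial markers *Emcn*, *Erg* and *Calcrl* also lay under the filter, at 1.51, 1.42 and 1.19 times the background.

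*Klf2* is the zinc finger factor that endothelium induces under laminar flow, read by a probe at chr8:74845137-74845196 (mm9). In Norm it ranged from -0.22 (Norm 11) over a median of -0.024 to 0.40 (Norm 12), and in Hypox from -0.43 (Hypox 1) over a median of 0.38 to 1.09 (Hypox 12). Hypox 10 with 0.61 and Hypox 9 with 0.59 came next, 6 Hypox arrays lay above every Norm array, and Hypox 1 and Hypox 4 lay below all of them. The mean was 0.0052 ± 0.22 in the Norm mice and 0.32 ± 0.40 in the Hypox mice (SD, n = 12 each). The log2 fold change was 0.32 (SE 0.124), and without Hypox 12 it was 0.25. Hypox was above Norm on all 6 slides, by 0.06 on slide 3 and by 0.55 on slide 4.

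*Klf4*, a related factor that shares targets with *Klf2*, had nearly equal group means. It spanned -0.20 to 0.34 in Norm (median 0.083) and -0.38 to 0.51 in Hypox (median 0.09), so that the Hypox arrays lay on both sides of the Norm range. The log2 fold change was 0.016 (SE 0.0957), with a 95% interval from -0.18 to 0.21, and Hypox was the higher group on 3 of 6 slides.

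*Nos3* spanned -0.12 to 0.98 in Norm (median 0.36) and -0.38 to 0.75 in Hypox (median 0.40) on its brighter probe, at 7.96 times the background. The groups overlapped throughout, with a log2 fold change of -0.00089 and a 95% interval from -0.26 to 0.26. A second probe, printed 10 times on the array, was dimmer at 1.81 times the background and gave 0.10.

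*Kdr* and *Flt1* encode the VEGF receptors 2 and 1. The brighter *Kdr* probe, at 28 times the background, spanned -0.46 to 0.68 in Norm (median 0.037) and -0.56 to 0.40 in Hypox (median -0.051). Its log2 fold change was -0.15 (SE 0.123), and Hypox was the higher group on 1 of 6 slides. The other *Kdr* probe, printed 10 times, gave 0.10 (SE 0.0692), with Hypox above Norm on 5 of 6 slides. The probes of *Kdr* thus differed in sign, each with a 95% interval that held 0.

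*Flt1* was read by 3 probes. The brightest spanned -0.74 to 0.027 in Norm (median -0.27) and -1.04 to -0.021 in Hypox (median -0.21), where the lowest value was far below the rest, and its log2 fold change was -0.045 (SE 0.10). The probe at 7.43 times the background gave 0.025 (SE 0.0601). The third gave 0.35 (SE 0.311), which rested on 1 spot: the signal was 4480 in Hypox 4, where the other probes of *Flt1* read 71 and 44, and it was well above background on no other array.

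The angiopoietin receptor *Tek*, also called Tie2, and its partner *Tie1* were dim. *Tie1*, at 2.96 times the background, spanned -0.74 to 0.18 in Norm (median -0.42) and -0.59 to -0.13 in Hypox (median -0.38), with a log2 fold change of -0.004 (SE 0.0896). *Tek*, at 1.61 times the background, spanned -0.45 to 0.15 in Norm and -0.60 to 0.041 in Hypox, with a log2 fold change of -0.076 (SE 0.0738). Neither gene had a Hypox array above every Norm array.

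**Figure D2:**
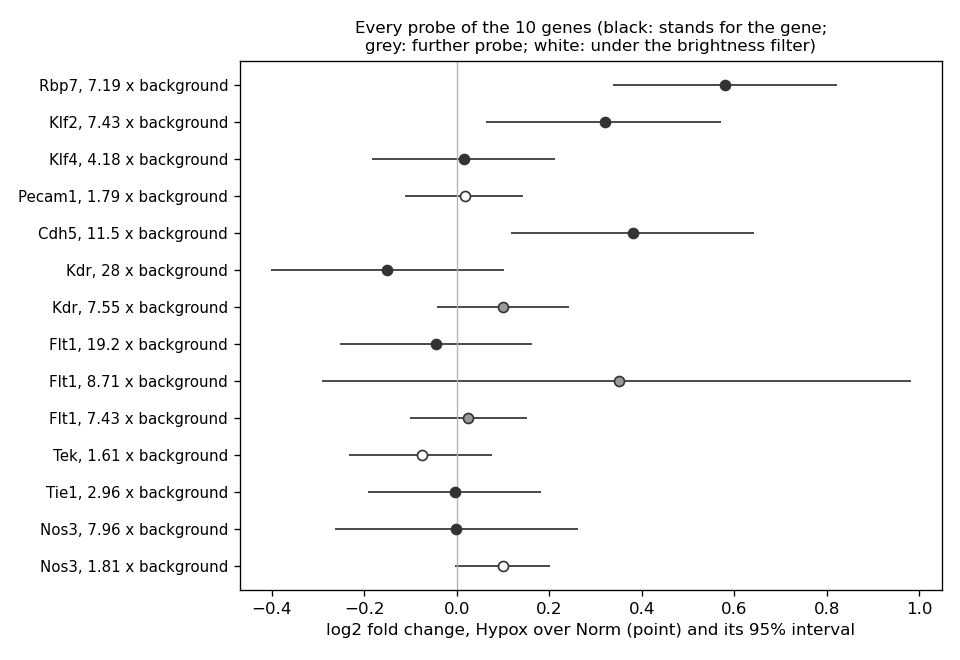
Log2 fold change of Hypox over Norm (horizontal axis) with its 95% interval for all 14 probes of the 10 genes, each row naming the gene and how bright the probe was over its local background. *Rbp7* lies farthest right at 0.58, and the widest interval is that of the *Flt1* probe with 1 aberrant spot. Because the genes were chosen on this contrast, the intervals are a description and not a test.

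**Figure D3:**
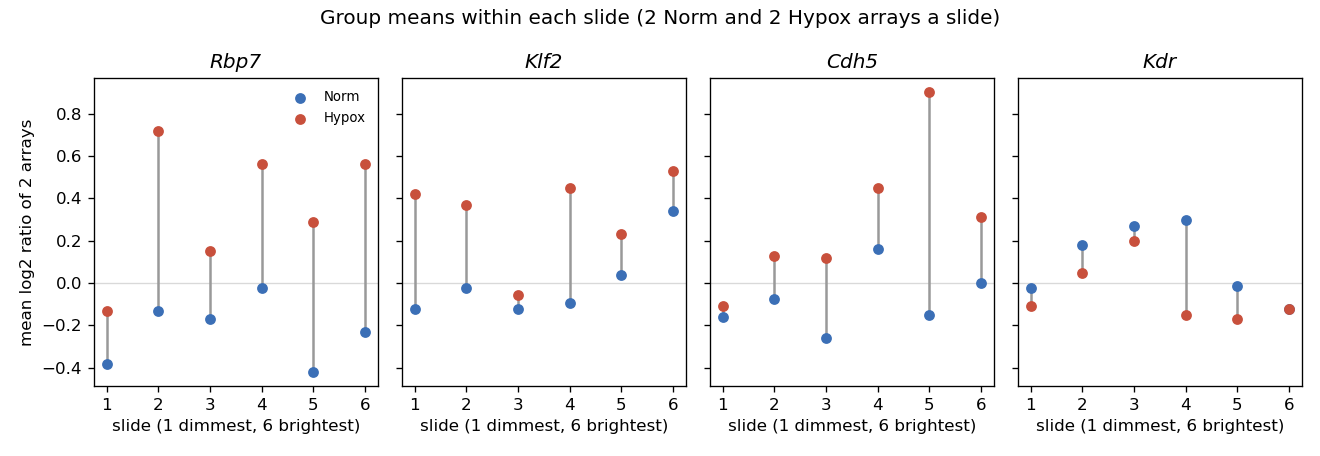
Mean log2 ratio of the 2 Norm and the 2 Hypox arrays on each slide (horizontal axis, slides ordered by Cy5 brightness) for 4 genes. Hypox is above Norm on 6 of 6 slides for *Rbp7*, *Klf2* and *Cdh5*, and on 1 of 6 for *Kdr*.

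The values and their order moved with the scaling. On the scanner software's processed signals, *Rbp7*, *Klf2* and *Cdh5* stood at 0.67, 0.55 and 0.35, with *Klf2* above *Cdh5*. When each array was centred on its median in place of loess, the median of all genes rose to 0.25, and *Rbp7*, *Cdh5* and *Klf2* stood at 0.72, 0.63 and 0.51, that is, above that shift. *Kdr* at 0.20, *Flt1* at 0.28 and *Nos3* at 0.25 were then near it, so the sign of *Kdr* and *Flt1* turned with the scaling. On the Cy5 channel alone, *Rbp7*, *Cdh5* and *Klf2* were 0.61, 0.34 and 0.25, and in the deposited values 0.54, 0.49 and 0.39.

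Endothelial genes outside the 10 were then read in the same comparison. This list and those below were also chosen with earlier results of these data known. Their shares are therefore a description and cannot test for an excess over all genes. Of 25 tested pan-endothelial genes, 7 were higher (28%), 1 was lower and 17 passed no threshold at an unadjusted P-value of 0.05. Of all 9139 genes, limma called 7.17% higher and 5.07% lower at that threshold. None of the 25 passed after adjustment, where 0.0875% of all genes were called higher. *Adgrf5*, an adhesion receptor of capillary and lung endothelium, was higher by 0.44 (SE 0.119, limma P-value 0.000835, adjusted 0.0977). Hypox was above Norm on 4 of 6 slides for *Adgrf5*, and its highest value, 1.41, was that of Hypox 2, the array with the highest *Cdh5*. *Esam*, a junction adhesion molecule, was higher by 0.28 (SE 0.0787, P-value 0.00141, adjusted 0.117) and *Cldn5*, a tight junction protein, by 0.30 (SE 0.0959, P-value 0.00441, adjusted 0.192), both on all 6 slides. *Adgrl4* was higher by 0.27 (adjusted 0.197), and *Cd34*, a sialomucin of capillary endothelium and stromal cells, differed by -0.26 (SE 0.123, P-value 0.0464, adjusted 0.398). The median of the list was 0.029, the same as that of all genes.

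Of 11 tested capillary genes of lipid and fluid uptake, 4 were higher (36.4%) and none was lower, beside the 7.17% and 5.07% of all genes, and their median was 0.03. *Gpihbp1*, which anchors lipoprotein lipase on the capillary wall, was higher by 0.51 (SE 0.124, limma P-value 0.000321, adjusted 0.062), with the Norm arrays between -0.77 and 0.21 and the Hypox arrays between -0.47 and 1.11. The highest *Gpihbp1* and *Fabp5* were both in Hypox 2, as for *Cdh5* and *Adgrf5*, while *Cd36* was highest in Hypox 10 and *Timp4* in Hypox 8. *Fabp5*, a fatty acid-binding protein, was higher by 0.30 (SE 0.114, P-value 0.0144, adjusted 0.266), *Cd36*, a fatty acid transporter that muscle fibers express too, by 0.29 (SE 0.118, P-value 0.0207, adjusted 0.297) and *Timp4* by 0.22 (SE 0.0963, P-value 0.0281, adjusted 0.336). *Meox2* and *Tcf15*, transcription factors that form a pair in capillary endothelium, gave -0.092 and -0.06, and *Aqp1*, the water channel of these cells, 0.03.

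The list of the KLF2 axis holds genes upstream and downstream of *Klf2* and further KLF factors. Of 23 genes listed, 16 were tested. Of these, 1 was higher (6.25%, near the 7.17% of all genes), none was lower and 15 passed no threshold, with a median of -0.017. *Edn1*, *Vcam1*, *Sele* and *Plat* were among those under the filter, at 1.27, 1.81, 1.11 and 1.4 times the background. *Klf10*, an early TGF-β response factor, was higher by 0.44 (SE 0.122, limma P-value 0.00115, adjusted 0.105) on all 6 slides. *Thbd*, the anticoagulant thrombomodulin and a classical KLF2 target, gave -0.089 (SE 0.11), *S1pr1* gave -0.068 (SE 0.0957), and the MEF2 factors *Mef2a*, *Mef2c* and *Mef2d* gave -0.078, 0.12 and 0.10. Of 10 genes tested around nitric oxide, which include the soluble guanylate cyclase subunits, caveolins and *Gch1*, none was called in either direction and the median was -0.047. Of 7 VEGF and angiopoietin genes tested, 1 was higher (14.3%, beside 7.17% of all genes) and none was lower. This was *Nrp1*, a VEGF coreceptor, with 0.19 (SE 0.0889, limma P-value 0.0465, adjusted 0.398), while *Vegfa* gave -0.087 (SE 0.0888).

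Markers of the cells around the capillary were read beside them. Of 10 genes of pericytes and smooth muscle, *Kcnj8*, the pore subunit of their ATP-sensitive potassium channel, was higher by 0.24 (SE 0.0641, limma P-value 0.000834, adjusted 0.0977), and *Abcc9*, a channel subunit also expressed by muscle fibers, differed by -0.40 (SE 0.13, P-value 0.00458, adjusted 0.194). The other 8 passed no threshold. Of the 10, 1 was thus higher and 1 lower without adjustment, beside 7.17% and 5.07% of all genes. The lymphatic markers *Prox1* and *Lyve1* lay under the filter at 1.2 and 1.79 times the background, and *Pdpn* gave 0.042. Red blood cell genes had 5 of 9 tested and none called. Of the 5, 4 had a log2 fold change above 0, and their median was 0.13. *Hba-a2*, the one with the widest range over arrays, gave -0.13 (SE 0.219). Leukocyte genes had 7 of 12 tested and none called, and of 10 skeletal muscle genes none was called, with a median of -0.25. The part of these cells in the values of the 10 genes was not tested.

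**Figure D4:**
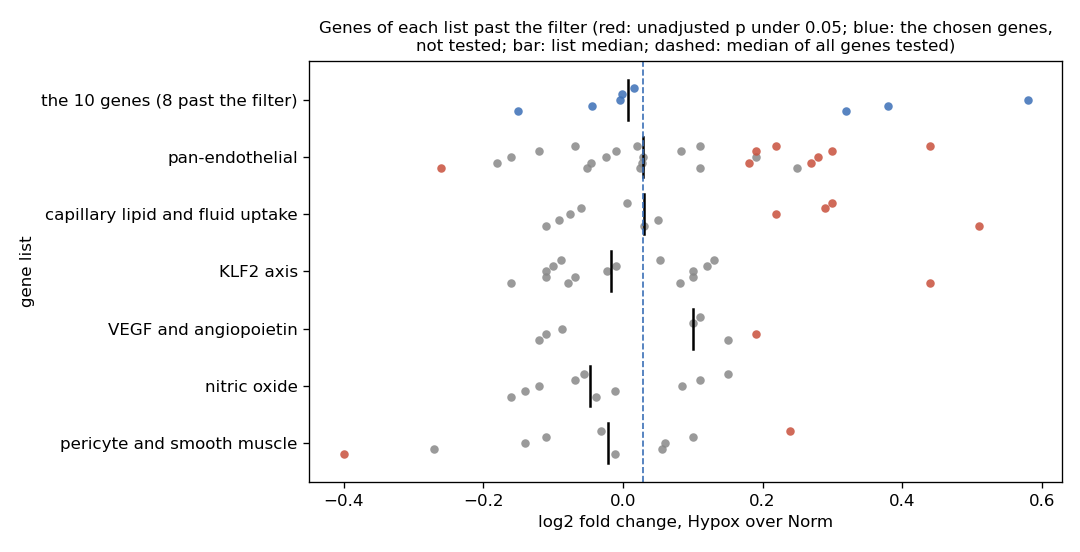
Log2 fold change of Hypox over Norm (horizontal axis) for the tested genes of each list (rows), with genes at an unadjusted P-value under 0.05 in red. Blue marks 8 of the 10 genes, without a test. List medians are black bars, and the median of all 9139 genes, 0.029, is dashed. Red points to the right of 0 are 7 of 25 pan-endothelial genes, 4 of 11 capillary uptake genes, *Klf10*, *Nrp1* and *Kcnj8*.

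Whether the endothelial genes moved together from mouse to mouse was asked within each group, which does not use the difference between Norm and Hypox. Over the 28 pairs of the 8 genes past the filter, the median Pearson r was -0.078 in Norm and 0.005 in Hypox, beside 0.006 and -0.001 over all pairs of 9055 genes with values on every array. Positive were 12 pairs in Norm (42.9%) and 14 in Hypox (50%), against 50.5% and 49.9% of all pairs. Pairs with r over 0.5 numbered 2 of 28 in each group, while they made up 9.11% of all gene pairs in Norm and 11.3% in Hypox. Of the 28 pairs, 9 were positive and 11 negative in both groups. These values depended on the scaling: with each array centred on its median the median r was 0.92 and 0.90, and in the deposited values 0.51 and 0.43. No value over all gene pairs is given beside these. With median centring the positive slopes rose over all genes too, as given below, so 0.92 and 0.90 are not particular to endothelial genes.

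**Figure D5:**
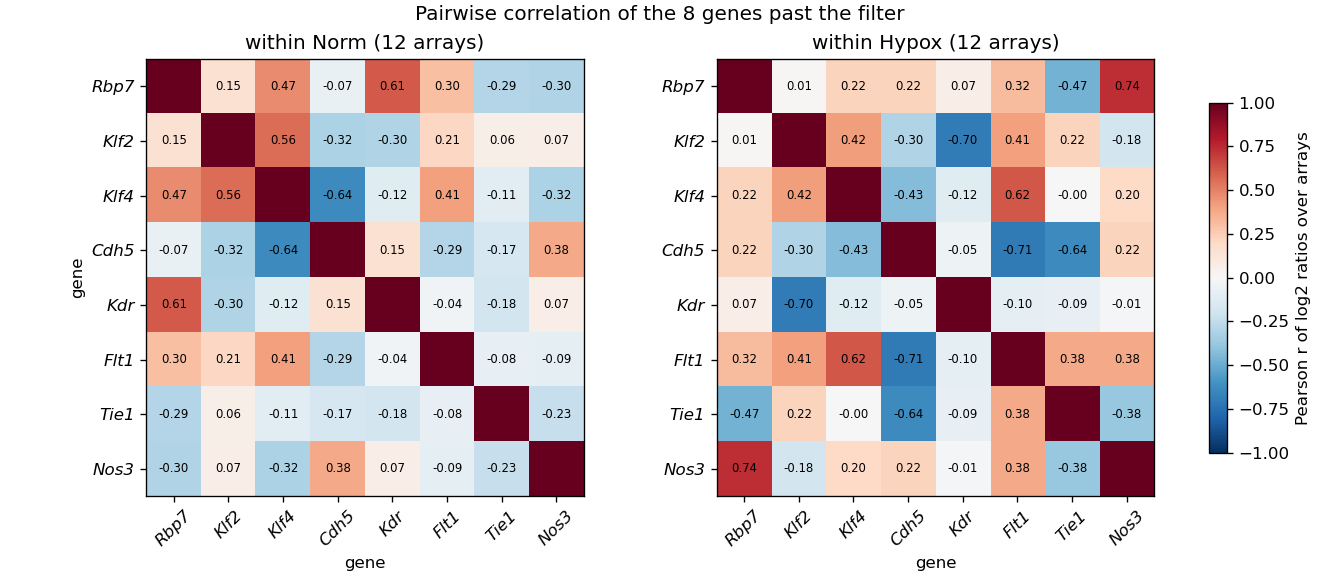
Pearson r of log2 ratios between each pair of the 8 genes past the filter (rows and columns), within the 12 Norm arrays on the left and the 12 Hypox arrays on the right. *Klf2* and *Klf4* are positive in both groups, with 0.56 and 0.42, and *Klf4* and *Cdh5* are negative in both, with -0.64 and -0.43.

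The pair *Klf2* and *Klf4* had r = 0.56 in Norm (permutation P-value 0.0606, adjusted 0.232 over the 14 correlations tested) and r = 0.42 in Hypox (0.173, adjusted 0.484). Spearman's rho was 0.69 (permutation P-value 0.0175, adjusted 0.122) and 0.56 (0.0637, adjusted 0.297), and without the 2 arrays farthest from the *Klf2* median r was 0.63 and 0.64. With the mean of each slide removed, r was 0.84 in Norm and 0.92 in Hypox. Each group has 2 arrays per slide, whose values then mirror each other, so such an r rests on only 6 independent differences. Large r were then more frequent over all genes too. Among all gene pairs, 14.5% in Norm and 17% in Hypox exceeded 0.5, beside 9.11% and 11.3% with slide means kept. Such values are therefore not comparable with r over all arrays of a group. *Tek* and *Tie1* had r = 0.60 in Norm (permutation P-value 0.0377, adjusted 0.232) and 0.54 in Hypox (0.0662, adjusted 0.232), and rho = 0.70 (0.0143, adjusted 0.122) and 0.49 (0.109, adjusted 0.345), both on dim probes. Their correlation with the log2 Cy5 brightness of the array was -0.66 and -0.48 in Norm for *Tek* and *Tie1*. In Hypox it was -0.41 and -0.69. With slide means removed, r of the pair was -0.025 in Norm and 0.65 in Hypox, under the same limit and without a test. No correlation passed after adjustment.

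*Rbp7* and *Klf2*, both higher in Hypox, showed little relation within groups, with r = 0.15 in Norm (permutation P-value 0.651, adjusted 0.911) and 0.012 in Hypox (0.972, adjusted 0.972), and rho of 0.20 and 0.056. *Rbp7* and *Cdh5* had r = -0.071 in Norm and 0.22 in Hypox, and *Klf2* and *Cdh5* -0.32 and -0.30. Hypox 12 combined the highest *Klf2* with the lowest *Rbp7* and the lowest *Cdh5* of the Hypox arrays. It lay on slide 1, the dimmest, with a mean Cy5 signal of 102 and 16.2% of spots well above background. Its raw Cy5 signals were 122 for *Klf2*, 49.6 for *Rbp7* and 56.4 for *Cdh5*, over local backgrounds of 42, 30 and 29. Whether this dimness bears on its values was not tested. That array also had the highest *Itgam*, the myeloid integrin CD11b, at 1.37, and the highest *Fcer1g* at 1.19. The mean of the 7 leukocyte genes spanned -0.18 to 0.30 in Norm and -0.29 to 0.35 in Hypox, with *Ptprc* under the filter. Within Hypox, *Klf2* and the leukocyte mean had r = 0.39 over 12 arrays and 0.0053 without Hypox 12, and *Rbp7* had -0.67 and -0.52. Within Norm, r with the leukocyte mean was 0.43 for *Klf2* and 0.59 for *Rbp7*, the opposite sign to Hypox for the latter. The VEGF receptors *Kdr* and *Flt1* had r = -0.038 in Norm and -0.10 in Hypox. Correlations with *Pecam1* did not pass after adjustment, the nearest being *Cdh5* in Norm with r = -0.60 (permutation P-value 0.0409, adjusted 0.232), which was -0.23 without the 2 arrays farthest from the *Cdh5* median.

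The strongest single pair in Hypox was *Rbp7* with *Nos3*, r = 0.74, which was 0.63 without Hypox 12 and -0.30 in Norm. This pair was picked as the highest and has no test. Within Hypox, the log2 Cy5 brightness of the array had r = 0.50 with *Rbp7* and 0.57 with *Nos3*. With slide means removed, r of the pair in Hypox was 0.58, under the limit given above for such values. The part of brightness in this r was not tested. *Cdh5* and *Flt1* had r = -0.71 in Hypox, which became -0.20 without Hypox 2, the array with the highest *Cdh5*. The SD within groups was 0.302 for *Rbp7*, 0.319 for *Klf2* and 0.328 for *Cdh5*, which is larger than the SD of 74.5%, 78.4% and 80% of genes, and 0.217 for *Tie1*, beside a median of 0.235 over all genes.

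Each other gene past the filter was then tested for a slope on 1 endothelial gene within groups and slides. No gene passed adjustment for *Rbp7*, with 200 positive slopes at an unadjusted limma P-value of 0.05, 2.19% of genes, and 161 negative ones. Without Hypox 12, 1 gene passed. The 5 genes with the largest positive t were *Eif2s3y* with a slope of 1.15 (SE 0.224, limma P-value 3.64e-05, adjusted 0.333), *Ktn1* with 0.73, *Mrpl33* with 0.74, *Ttc32* with 0.93 and *Tnks2* with 0.61, the last 4 at an adjusted P-value of 0.997. *Fabp4*, a fatty acid-binding protein of capillaries and adipocytes, had a slope of 0.62 on *Rbp7* (SE 0.234, limma P-value 0.0143, adjusted 0.997), and *Sftpc* 1.57 (SE 0.649, P-value 0.0238, adjusted 0.997). Of 25 pan-endothelial genes, 14 had a positive slope, 1 positive and 1 negative at an unadjusted P-value of 0.05, and 51.9% of all genes had a positive slope.

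For *Klf2*, 189 genes had a positive and 88 a negative slope after adjustment, and 9.86% of all genes a positive one at an unadjusted P-value of 0.05. Leading were *Sort1*, a sorting receptor, with 0.95 (SE 0.14, limma adjusted P-value 0.00308), *Pitrm1* with 0.89, *2810025M15Rik* with 0.95, *Smim10l1* with 0.91 and *Phtf2* with 0.79. Among endothelial genes, *Vwf*, the von Willebrand factor, had 0.80 (SE 0.168, adjusted 0.0159) and *Klf4* 0.40 (SE 0.152, adjusted 0.153), while *Cdh5* had -0.54 (SE 0.187, adjusted 0.118) and *Gpihbp1* -0.53 (SE 0.203, adjusted 0.163). *Klf3*, listed as a further KLF factor and not as an endothelial gene, had 0.67 (SE 0.123, adjusted 0.00816). Of 10 skeletal muscle genes, 9 had a negative slope on *Klf2*, with a median of -0.64 beside 0.018 over all genes. After adjustment 4 of them were called, *Acta1* with -1.51 (SE 0.32, adjusted 0.0164), *Pvalb* with -1.08, *Tnni2* with -1.21 and *Myl1* with -1.17. These calls rested on Hypox 12, an array of the dimmest slide. Without that array 0 genes passed adjustment in either direction, with 464 positive and 210 negative slopes at an unadjusted P-value of 0.05. The slopes were then 0.62 for *Klf4*, 0.43 for *Vwf*, -0.51 for *Cdh5* and -0.79 for *Acta1* (limma P-values 0.0078, 0.0605, 0.0739 and 0.0667, adjusted 0.668 for *Klf4* and 0.67 for the others).

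*Pecam1* had no gene past adjustment and 417 positive slopes without it, 4.56% of genes, beside 214 negative ones. Among those with the largest positive t were *Vangl1*, *Cul4a*, *Zfp830* and *Naa80*, with slopes from 0.94 to 1.19, each at a limma adjusted P-value of 0.688. Because the *Pecam1* probe was dim, *Cdh5* was added as the endothelial gene to follow, and it gave 984 positive and 74 negative slopes after adjustment, with 15% of all genes positive at an unadjusted P-value of 0.05. Of 25 pan-endothelial genes, 2 were among those called. Among those with the largest positive t were *Rps2*, which encodes a ribosomal protein, with 1.49 (SE 0.164, limma adjusted P-value 2.04e-05), *Hspb6*, *Igfbp5* and *Pdha1*. *Gpihbp1* with 0.87 (SE 0.16, adjusted 0.000707) and *Adgrf5* with 0.65 (SE 0.188, adjusted 0.0233) had positive slopes on *Cdh5*, and *Esam* with -0.43 (SE 0.135, adjusted 0.0399) and *Flt1* with -0.48 (SE 0.157, adjusted 0.0479) negative ones. Of the pan-endothelial genes, 7 had a positive slope, with a median of -0.094, and 44.6% of all genes did. Of 10 skeletal muscle genes, 9 had a positive slope on *Cdh5*, with a median of 0.68 beside -0.03 over all genes, and 2 were called after adjustment, *Acta1* with 1.68 (SE 0.314, adjusted 0.000804) and *Myl1* with 1.46 (SE 0.287, adjusted 0.00124). Without Hypox 2, 124 positive and 24 negative slopes passed, of which 115 in all were among those called with every array. The slopes were then 0.70 for *Gpihbp1* (limma adjusted P-value 0.0748), 0.31 for *Adgrf5* (0.491), -0.30 for *Esam* (0.356) and -0.34 for *Flt1* (0.383), none of them past adjustment. *Acta1* had 2.01 (0.0208) and *Myl1* 1.16 (0.105).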

How the data were processed

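For every spot, the deposited intensity values (mean signal and local background of both dyes) are the scanner text output of Agilent Feature Extraction 10.7.3.1 for 24 arrays, without normalization between arrays. The authors also deposited log2 values for 21335 spots, normalized with GeneMaths XT per the paper's methods, of which the scaling and the use of the Cy3 channel stay unknown. Groups and replicate numbers came from the sample titles and slides from the scanner output. Cy5 was taken for the mouse and Cy3 for the pool as the descriptions state, although 5 Hypox samples carry another dye name in their label field.

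From the intensities, controls and 7260 flagged spot readings were left out, the mean signal was corrected with normexp (offset 50), and the log2 ratio of Cy5 to Cy3 was loess-normalized on each array, after which repeated spots were averaged. RefSeq accessions named the gene of 27235 of the 55681 probes, symbols that of 3581 and synonyms that of 565, which left 24300 unnamed. Kept were probes that exceeded 2 times their local background in mean Cy5 signal with no more than 4 arrays missing, and the brightest probe stood for each of 9139 genes. The number of arrays limits the precision. Probe positions on the array design follow mm9 and were not mixed with the RefSeq promoters.

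Hypox was compared with Norm by limma 3.58.1 (R 4.3.3, lmFit and eBayes, no block), and P-values were adjusted after Benjamini and Hochberg for all genes tested. Slopes were fitted with group and slide as terms. Correlations were tested with 100000 two-sided permutations. The 10 genes and the 14 other gene lists were chosen with earlier results of these data known, with *Ptprb* and *S1pr1* in 2 lists each. Named are all 10 genes, of each list at most 4 genes at an unadjusted P-value under 0.05 with the smallest P-values, the 5 leading slopes and the most extreme marker genes, except that a few genes under this rule are not reported here. Others, such as *Thbd*, *Meox2* or *Vwf*, were named after their values were seen for their known role. The alternatives were other scalings, the deposited values, a block for slide or for replicate number, weighting of arrays, filter settings, averaging over probes per gene, the methods' t-test and leaving out each array. Chosen after seeing the data were the fits without slide 1, without both Hypox 8 and Norm 12, the slopes on *Cdh5* and those without 1 array, and the pairs with *Cdh5*.

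The tests were tested on simulated data. When 200 of the 9139 genes were shifted by 1 (log2), the comparison of Hypox with Norm recovered 99.5% of them with 9 false calls. With 200 genes given a slope of 1 on *Rbp7*, 60.5% were recovered with 4 false calls. The shift of 1 was larger than the 0.58 of *Rbp7*, and the simulated noise was independent between genes and arrays. These rates therefore do not carry over to smaller differences or to calls that rest on 1 array.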

Additional observations from a re-analysis of the deposited data

How the results depend on the processing

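The direction of *Rbp7*, *Klf2* and *Cdh5* was the same under all 37 alternatives, and each moved by less than 1 SD between mice, to 0.55 for *Klf2* on processed signals and 0.63 for *Cdh5* with median centring. Leaving out each array gave 0.53 to 0.64 for *Rbp7*, 0.25 to 0.39 for *Klf2* and 0.30 to 0.45 for *Cdh5*. The genes near 0 changed sign with 1 array left out, with ranges of -0.024 to 0.057 for *Klf4*, -0.091 to 0.025 for *Flt1*, -0.038 to 0.045 for *Tie1* and -0.045 to 0.067 for *Nos3*, while *Kdr* gave -0.20 to -0.10. The scanner software's processed signals moved *Tie1* to -0.28 and the adjusted count to 66 genes. Median centring left 32 genes without and 0 after adjustment, moved *Kdr* to 0.20, *Flt1* to 0.28 and the medians of the 10 genes, the pan-endothelial genes, the capillary uptake genes and the KLF2 axis to 0.27, 0.21, 0.43 and 0.21. It also took the median pairwise r to 0.92 in Norm and 0.90 in Hypox, and the genes with a positive slope from 417 to 6025 on *Pecam1*, from 200 to 8160 on *Rbp7* and from 901 to 8231 on *Klf2*. The share of higher genes among those called moved from 58.6% to 100% with it. The cause was not tested.

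The count of genes called was 1118 without and 31 after adjustment (8 higher, 23 lower). It became 733 and 15 on Cy5 alone, 488 and 1 on the deposited values, 1719 and 277 with array weights, and 1939 and 8 without the filter on dim probes. The adjusted count was 70 with slide as a block, 9 with the methods' t-test, 47 without both Hypox 8 and Norm 12, and 4 to 53 leaving out each array, lowest without Hypox 7 and highest without Norm 12. In Hypox the median r was 0.27 on the processed signals, 0.16 on Cy5 alone and 0.43 on the deposited values, and in Norm 0.51 on the deposited values, which gave 0.31 for the capillary uptake genes. Positive slopes numbered 1065 on *Pecam1* and 565 on *Rbp7* without slide terms, 802 on *Rbp7* and 1482 on *Klf2* with Cy5 alone, 326 on *Rbp7* without Hypox 8 and 464 on *Klf2* without Hypox 12.

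The replicate number as a block gave 18 genes after adjustment and left *Rbp7* at 0.58. The numbers are not shown to pair mice: same-numbered arrays had a median correlation of 0.0076 (-0.21 to 0.51), 3 of 12 pairs were over 0.1, and 2 of 12 Norm arrays correlated best with their own number. *Pecam1* and *Tek* are limited by dim probes.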

Other observations

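Immediate early genes, known to respond to activity and handling, held differences in both directions beside those of the endothelial genes. *Nr4a1*, an orphan nuclear receptor, differed by -0.39 (SE 0.101, limma P-value 0.000576, adjusted 0.0866) and was lower in Hypox on all 6 slides. *Jun* differed by -0.30 (SE 0.0976, P-value 0.00452, adjusted 0.194), and *Btg2* by 0.19 (SE 0.075, P-value 0.0166, adjusted 0.277). *Dusp1*, a phosphatase with the widest range of the list, gave 0.062 (SE 0.121, P-value 0.614, adjusted 0.859). Of 15 listed, 5 were tested, of which 1 was higher and 2 were lower without adjustment, beside 7.17% and 5.07% of all genes. *Fos*, *Junb* and *Egr3* lay under the filter at 1.41, 1.19 and 1.22 times the background. Of 7 peripheral nerve genes tested, 3 were lower and none was higher at an unadjusted limma P-value of 0.05. Of all genes, 5.07% were lower and 7.17% higher at that threshold, and none of the 7 nerve genes passed after adjustment. Among the 3 were the Schwann cell genes *Prx* at -0.28 (SE 0.121, P-value 0.0281, adjusted 0.336) and *Pmp22* at -0.41 (SE 0.186, P-value 0.0371, adjusted 0.364).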
